A study of Rattus norvegicus with 59 samples.

Results

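The regions described here are the ends of the rat chromosomes, taken as the genomic bins that lie wholly within 5 Mb of either end. They hold 1243 of the 15874 bins in which the histone marks H3K9me2 and H3K27me3 were measured, which is 7.83%. A bin belonged to the start end when its last base was at or before 5 Mb, and to the far end when it began no more than 5 Mb before the last measured base of its chromosome. For H3K9me2, 541 of 6171 bins (8.77%) qualified, 234 at the start ends and 307 at the far ends. For H3K27me3, 702 of 9703 bins (7.23%) qualified, 328 at the start ends and 374 at the far ends. All other bins are called interior. The end bins as a set were chosen by position alone, not by the measured level of a mark. Single bins and chromosomes named below were then mostly picked from them by their values.

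The chromatin came from left ventricular nuclei of male Sprague Dawley rats, sorted for PCM1, a centriolar satellite protein used to mark cardiomyocyte nuclei. Rats that entered the surgery experiment at about 170 g either had a suture tightened around the ascending aorta and were examined after 6 weeks (banded), or had the same operation with the suture left loose (sham). Only banded rats whose hearts had thickened without failing were used. Rats that entered the training experiment at about 280 g ran intervals on an inclined treadmill over 6 weeks (trained) or did not take part (control). The labels give no ages, no time after the sham operation and no pooling of rats, and the sorted nuclei were not checked here against cardiomyocyte marker genes. Each group has 4 samples per mark, but the tables give 1 value per group and bin. A difference between groups therefore has no replicate spread to be set against, and no test was made for any difference below.

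H3K9me2 is a mark of repressed chromatin laid down mainly by the paired enzymes G9a and GLP, which are named in the title of the series. H3K27me3 is laid down by Polycomb repressive complex 2 and covers developmental genes that stay silent in a given cell type. Chromosome ends carry the telomeric repeats, and the sequence next to them is often rich in repeats and segmental duplications. In the rat, several chromosomes have only a long arm, so that their start end lies beside the centromere, whereas the far end of each chromosome lies beside a telomere. The 2 kinds of end are therefore given apart throughout.

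Values were deposited as log2 RPM per bin, where RPM scales the reads of a bin to the size of the library. Bins differ in length, with a median of 180 kb for H3K9me2 and 170 kb for H3K27me3 at the ends, so a level is given here as a density, in RPM per Mb of bin, and a difference between groups as a difference of log2 values. The end bins held 87.3 Mb of the start windows and 82.0 Mb of the far windows for H3K9me2, and 90.8 and 93.1 Mb for H3K27me3. Most of what was missing lay in bins that crossed the border and counted as interior. For H3K9me2 there were 19 such bins at the start ends and 19 at the far ends, and for H3K27me3 there were 19 and 20. On chromosome 1 the first H3K9me2 bin began at 595001. The 4 columns of a mark held nearly the same set of values in another order, and so had nearly equal sums. A genome-wide gain or loss of a mark is therefore not visible in them, and every difference below is relative to the rest of the genome. Both tables held 20 numbered chromosomes, and sex chromosomes were not analysed here.

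H3K9me2 was spread over the chromosome ends at about the density of the interior. Its median density, averaged over the groups, was 373 RPM per Mb at the start ends, 373 at the far ends and 382 in the interior. In control rats the medians were 370 at the start, 383 at the far end and 380 in the interior. Trained rats had 380, 383 and 382 RPM per Mb in the same order. Sham rats had 372, 385 and 387. Banded rats were the group in which the start ends, at 385, were denser than the far ends, at 368, with the interior at 383. The deficit of the start ends, 0.035 on the log2 scale for the averaged density, shrank to 0.00014 in the opposite direction when RPM and length were summed instead, and grew to 0.14 within 2 Mb of the start. The deficit of the far ends, 0.034, became an excess of 0.0089 within 2 Mb.

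The ends held more extreme H3K9me2 bins than the interior in both directions. Of the start end bins, 15.4% belonged to the densest 10% of all H3K9me2 bins and 12.8% to the sparsest 10%. The shares at the far ends were 12.4% and 12.1%, against 9.66% and 9.79% in the interior. The middle part of the distribution was also wider at the ends in each group. Its interquartile range over end bins was 0.77 on the log2 scale in control and 0.69 in trained rats, and 0.31 in sham and 0.38 in banded rats, against 0.66, 0.60, 0.29 and 0.34 in the interior.

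H3K27me3 differed more between the kinds of end. Its median density was 322 RPM per Mb at the start ends, 350 at the far ends and 345 in the interior. The start ends held the sparse bins, with 16.5% of them in the sparsest 10% of all H3K27me3 bins and 10.7% in the densest. The far ends held the dense bins, with 15.0% in the densest 10% and 9.89% in the sparsest. Summed over length, the far ends had 424 to 440 RPM per Mb in the 4 groups (banded lowest, control highest), above the 383 to 384 of the interior in each group, while the start ends had 385 to 390. The excess of the far ends depended on the summary. It was 0.024 on the log2 scale for the median of the bins, 0.17 for the summed density, and turned to a deficit of 0.17 within 2 Mb of the end. Leaving out 1 chromosome at a time gave values from -0.0045 to 0.082, with 2 below 0. The deficit of the start ends, 0.097, lay between 0.074 and 0.18 without any 1 chromosome, and became an excess of 0.017 for the summed density.

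**Figure D1:**
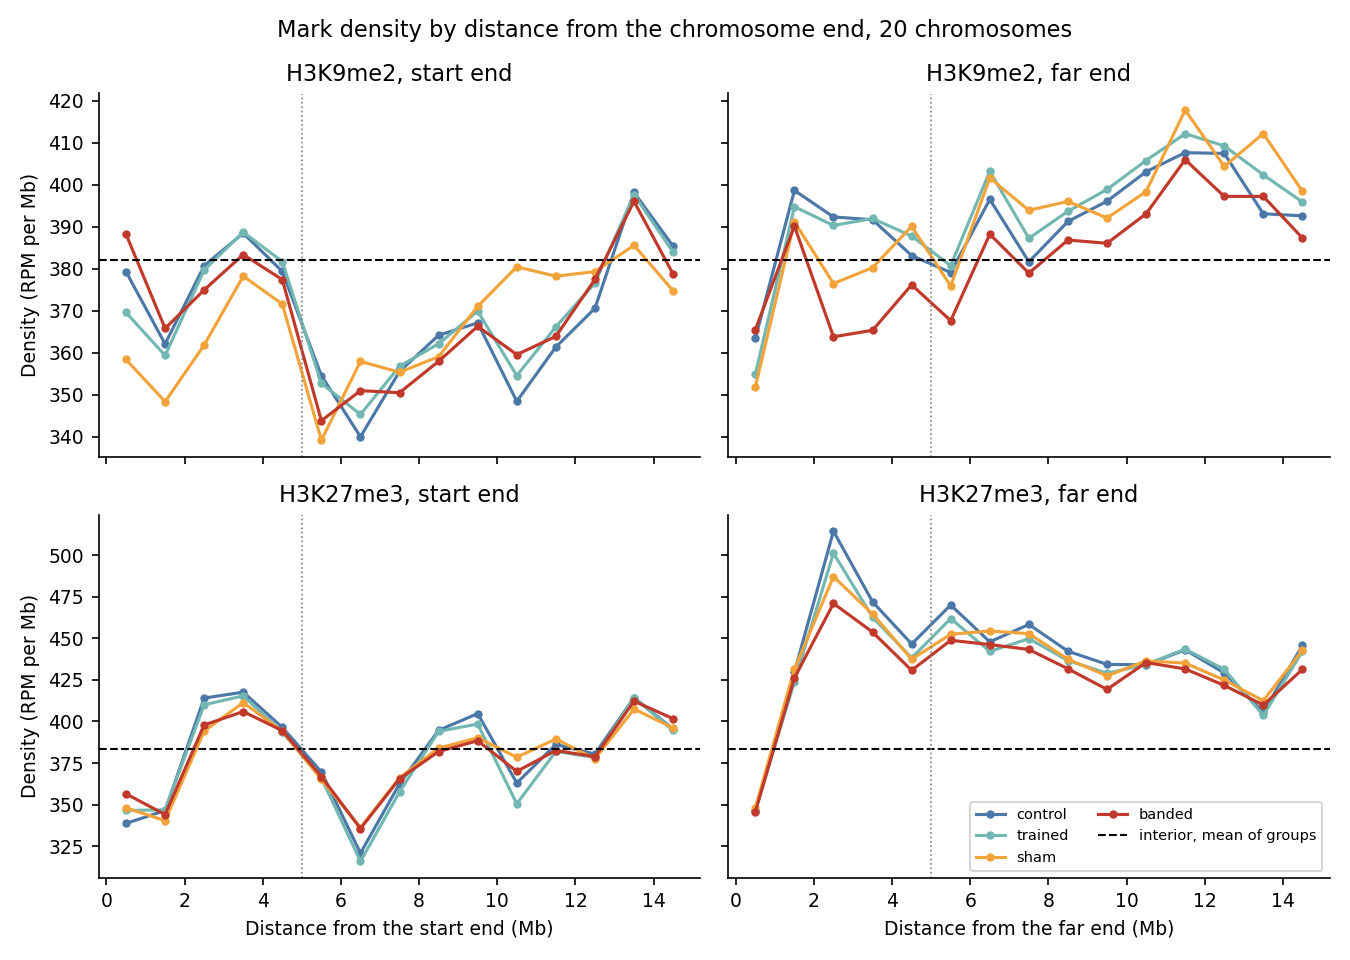
Density in RPM per Mb of H3K9me2 (top) and H3K27me3 (bottom) in 1 Mb steps from the start end (left) and the far end (right), length-weighted over 20 chromosomes, with 1 line per group. The dashed line is the interior, the dotted line the 5 Mb border, and the vertical axes do not begin at 0; H3K27me3 is lowest in the outermost 1 Mb of the far ends and highest from 2 to 3 Mb.

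The plot by distance shows where these differences lay. H3K27me3 in the outermost 1 Mb had 347 RPM per Mb at the start ends and 347 at the far ends, averaged over the groups. From 2 to 3 Mb it reached 493 at the far ends, with 514 in control, 501 in trained, 487 in sham and 471 in banded rats, and 404 at the start ends. The density of the far ends stayed at 427 to 458 RPM per Mb from 5 to 10 Mb, so the higher level was not limited to the 5 Mb window. H3K9me2 varied less, between 359 and 385 RPM per Mb over the steps of the start window and between 359 and 394 over those of the far window. Averaged over the groups, its lowest step at the far ends was the outermost 1 Mb.

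Single chromosomes departed far more from their own interior than the medians show. For H3K9me2, 7 of 20 start ends and 7 of 20 far ends were denser than the interior of the same chromosome. The start end of chromosome 17 had 490 RPM per Mb over 14 bins, against 378 in its interior. Chromosomes 15 (466 against 383) and 1 (420 against 378) followed. At the other extreme stood the start ends of chromosome 7, with 278 against 385 RPM per Mb over 8 bins, chromosome 20 (284 against 355) and chromosome 12 (305 against 377). The far ends ranged from chromosome 16, with 483 against 394 RPM per Mb, to chromosome 14, with 305 against 380. Chromosomes 1 (431) and 13 (423) were next at the high side, and chromosomes 19 (336) and 11 (319) at the low side.

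For H3K27me3 the spread between chromosomes was wider, from -0.76 to 0.95 on the log2 scale at the start ends and from -0.59 to 1.03 at the far ends. The start end of chromosome 17 was again the densest against its own interior, with 664 RPM per Mb over 21 bins against 344. Chromosomes 4 (512 against 350) and 20 (439 against 332) were next. The start ends of chromosomes 10 (253 against 430), 2 (192 against 309) and 8 (252 against 368) were the sparsest. At the far ends, chromosome 3 had 701 RPM per Mb over 12 bins, against 343 in its interior. Chromosomes 1 (539 against 364) and 7 (515 against 350) were also dense at the far end, while chromosomes 14 (216 against 324), 10 (332 against 430) and 16 (290 against 373) were sparse. In all, 7 of 20 start ends and 10 of 20 far ends were denser in H3K27me3 than their own interior. Chromosome 10 was sparse in H3K27me3 at both ends, and chromosome 7 was sparse at its start (-0.52 on the log2 scale) and dense at its far end (0.56).

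**Figure D2:**
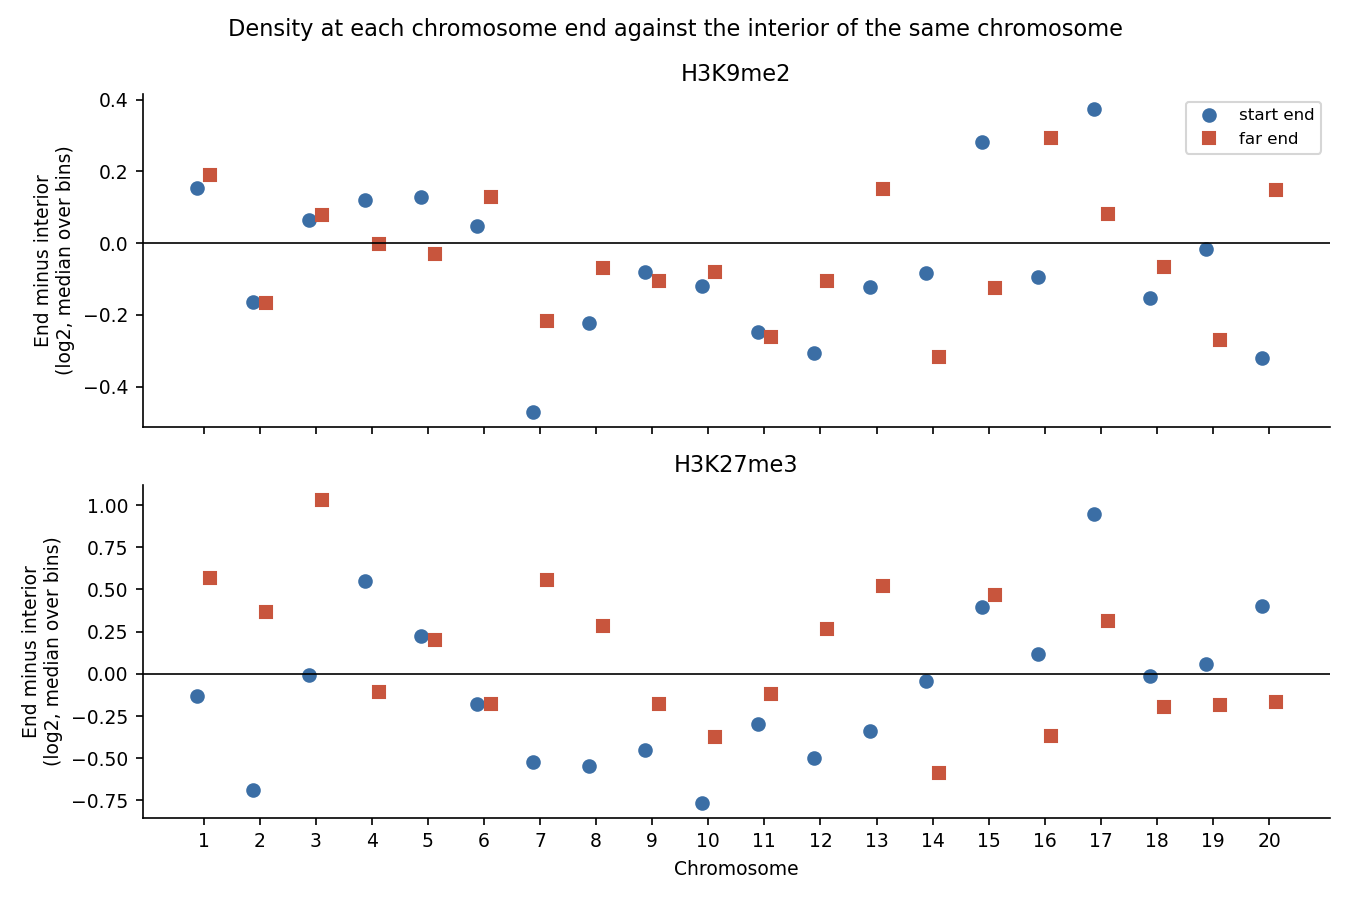
Median density of the end bins minus that of the interior bins of the same chromosome (log2, mean of the 4 groups) for H3K9me2 (top) and H3K27me3 (bottom), with circles for start ends and squares for far ends. For each mark 7 of 20 circles lie above 0, and the H3K27me3 scale is the wider, reaching 1.03 at the far end of chromosome 3.

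Chromosomes 2 and 4 to 10 are held to have only a long arm in the rat karyotype. Their 8 start ends are called beside the centromere here, and those of the other 12 the tips of the short arms. This grouping is general background and was not checked against the coordinates, whose genome build is not known. Where each start end lies is thus presumed. Beside the centromere, H3K27me3 had a median of 281 RPM per Mb over 132 bins, and 2 of 8 ends were denser than their own interior. At the tips of the short arms it had 341 RPM per Mb over 196 bins, and 5 of 12 were denser. H3K9me2 differed less in the median, at 370 RPM per Mb beside the centromere and 375 at the tips. Its length-weighted density in the outermost 1 Mb alone was 406 beside the centromere and 352 at the tips, but chromosome 2 alone had 844 there. Without chromosome 2 the order was reversed, with 341 RPM per Mb beside the centromere. The tips in turn had 331 without chromosome 17, so the order depended on single chromosomes.

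The bins at the top and bottom of the density scale show what the ends contain. Gene names cannot be given, since the sources used here do not name the genome build of the coordinates. The densest H3K9me2 end bin of at least 100 kb opened chromosome 2, from 1 to 1445001. It had 853 RPM per Mb in control, 865 in trained, 800 in sham and 857 in banded rats, so the groups were close. H3K27me3 over the same stretch was also dense, at 653 RPM per Mb. The second was on chromosome 14 from 3735001 to 4995001, with 705 RPM per Mb of H3K9me2 and 902 of H3K27me3. The third, at the far end of chromosome 16 from 85365001 to 85575001, had 614 RPM per Mb, with 756 of H3K27me3.

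The sparsest H3K9me2 end bin of at least 100 kb lay on chromosome 7 from 141865001 to 142075001. It had 134 RPM per Mb in control, 123 in trained, 98.0 in sham and 96.0 in banded rats. This bin began within the last part of the densest H3K27me3 end bin of at least 100 kb, chromosome 7 from 141635000 to 141875002, where H3K27me3 had 1858 RPM per Mb in control, 1859 in trained, 1758 in sham and 1616 in banded rats. Over that Polycomb-marked bin H3K9me2 had 782 RPM per Mb in control, 682 in trained, 370 in sham and 400 in banded rats, so both training groups were well above both surgery groups. The second sparsest H3K9me2 bin was the first bin of chromosome 1, from 595001 to 2215001, with 112 RPM per Mb and only 130 of H3K27me3, so both marks were low there. The third was on chromosome 3 from 167035001 to 167155001, with 136 RPM per Mb.

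The other leading H3K27me3 end bins lay at start ends. The second densest was on chromosome 15 from 515000 to 665002. It had 1770 RPM per Mb in control, 1942 in trained, 1362 in sham and 1212 in banded rats, and the surgery groups were both below the training groups. The third was on chromosome 20 from 3235000 to 3615002. It had 1251 RPM per Mb in control, 1137 in trained, 1660 in sham and 1567 in banded rats, with the surgery groups above. The start of rat chromosome 20 is known for the major histocompatibility complex, but whether this bin overlaps it was not tested. The sparsest H3K27me3 end bins were on chromosome 6 from 4705000 to 4925002 (62.0 RPM per Mb), chromosome 15 from 2675000 to 3015002 (79.9) and chromosome 14 from 745000 to 1505002 (89.7). Chromosome 15 thus carried a bin of each kind within its first 5 Mb.

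The bins at the 5 Mb border showed no common direction of change on chromosomes 1 and 20. On chromosome 1 the last H3K9me2 bin inside the start window, from 4595001 to 4645001, had 433 RPM per Mb and the bin across the border, from 4655001 to 5365001, had 446. On chromosome 20 the last inside, from 4265001 to 4765001, had 289 and the bin across, from 4775001 to 5425001, had 345. At the far end of chromosome 1 no H3K9me2 bin crossed the border, and the bin just inside, from 262895001 to 263015001, had 412. At the far end of chromosome 20 the bin across, from 49965001 to 52235001, had 382. The first bin wholly inside, from 52425001 to 52485001, had 493 and ended 2.77 Mb from the chromosome end. The H3K27me3 bins beside the start border had 342 inside and 502 across on chromosome 1, and 621 and 465 on chromosome 20. Those beside the far border had 557 and 297 on chromosome 1, and 349 and 417 on chromosome 20. The bin across the border was the denser in 4 of these 7 pairs and the sparser in 3. Each bin across lies partly inside the window, so the pairs do not set inside against outside.

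In the median over bins, the start ends departed from the interior in H3K9me2 between banded and sham rats. Between sham and control rats they did so by a like amount in the opposite direction. As means weighted by bin length, the 2 differences at the start ends were less alike, at 0.063 and -0.020. H3K9me2 at the start ends was higher in banded than in sham rats, with a median difference of 0.088 on the log2 scale and quartiles at -0.043 and 0.18, and 156 of 234 bins were higher. At the far ends the median was -0.013, with 143 of 307 bins higher, and in the interior it was 0.012, with 3018 of 5630 higher. The SD over bins was 0.16 at the start ends and 0.18 at the far ends, and it measures variation between regions, not between rats. On 16 of 20 chromosomes the median of the start end was above that of the interior of the same chromosome, and on 12 of 20 that of the far end was. On 14 of 20 chromosomes the start end was above the far end. The median of the start ends stayed between 0.084 and 0.10 without any 1 chromosome, and over all 30 alternative settings it was positive, from 0.023 with a 10 Mb window to 0.12 with a 2 Mb window. That of the far ends turned to 0.072 with a 2 Mb window.

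**Figure D3:**
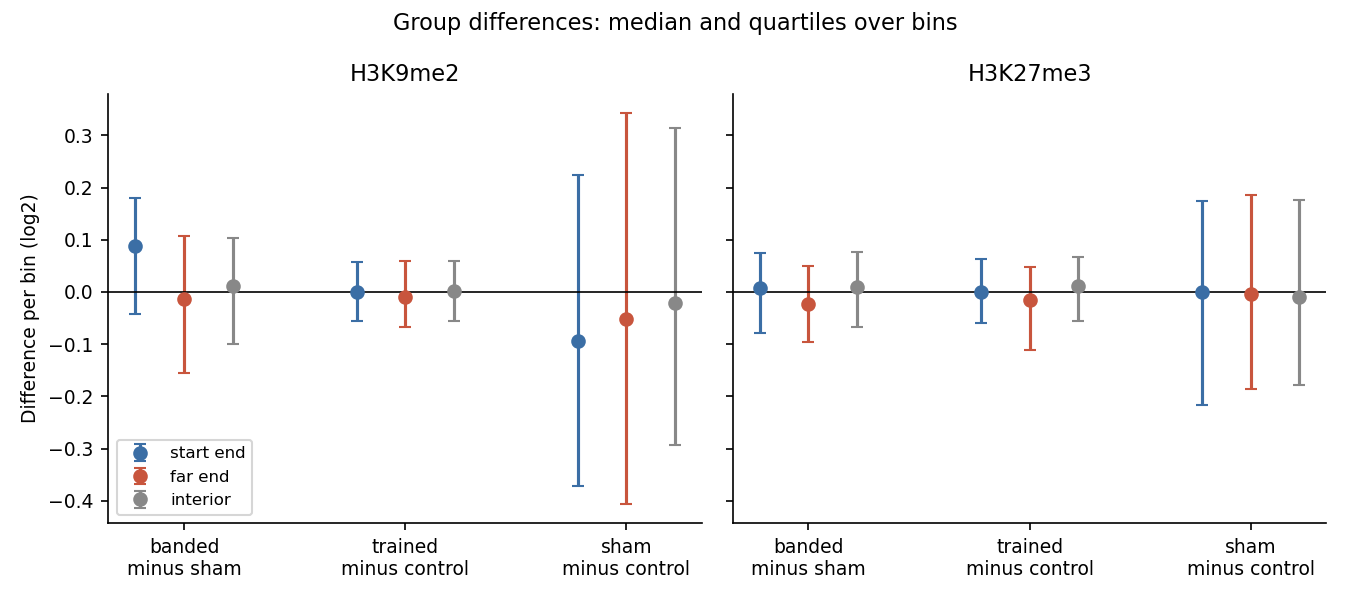
Median (point) and quartiles (bars) over bins of the log2 difference between groups for H3K9me2 (left) and H3K27me3 (right), with start ends in blue, far ends in red and interior in grey. The bars show variation between bins, not replicate error; the start ends stand above the other places for H3K9me2 in banded minus sham, with a median of 0.088.

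The difference was largest in the outermost 1 Mb. H3K9me2 in the outermost 1 Mb of the start ends had 358 RPM per Mb in sham and 388 in banded rats, with 379 in control and 370 in trained rats. Sham rats were thus the lowest of the 4 groups there and banded rats the highest, and the same sham column gives the negative sham minus control value of the start ends. The length-weighted mean of the banded minus sham difference was 0.13 there, 0.079 from 1 to 2 Mb, 0.056 from 2 to 3 Mb and 0.016 from 3 to 5 Mb. It was positive on 18 of 20 chromosomes, from 0.037 on chromosome 17 to 0.23 on chromosome 7, and negative on chromosomes 10 (-0.044) and 16 (-0.058). Without any 1 chromosome the mean lay between 0.12 and 0.14. The outermost 1 Mb of the far ends had 352 RPM per Mb in sham and 365 in banded rats. The difference was 0.059 there and positive on 15 of 20 chromosomes, with the lowest value on chromosome 10 (-0.24) and the highest on chromosome 18 (0.32). It was below 0 in the rest of the far window, at -0.052 from 2 to 3 Mb and -0.063 from 3 to 4 Mb. On the 8 chromosomes grouped as having only a long arm, the mean in the outermost 1 Mb of the start was 0.14 and positive on 7. On the other 12 it was 0.12 and positive on 11.

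**Figure D4:**
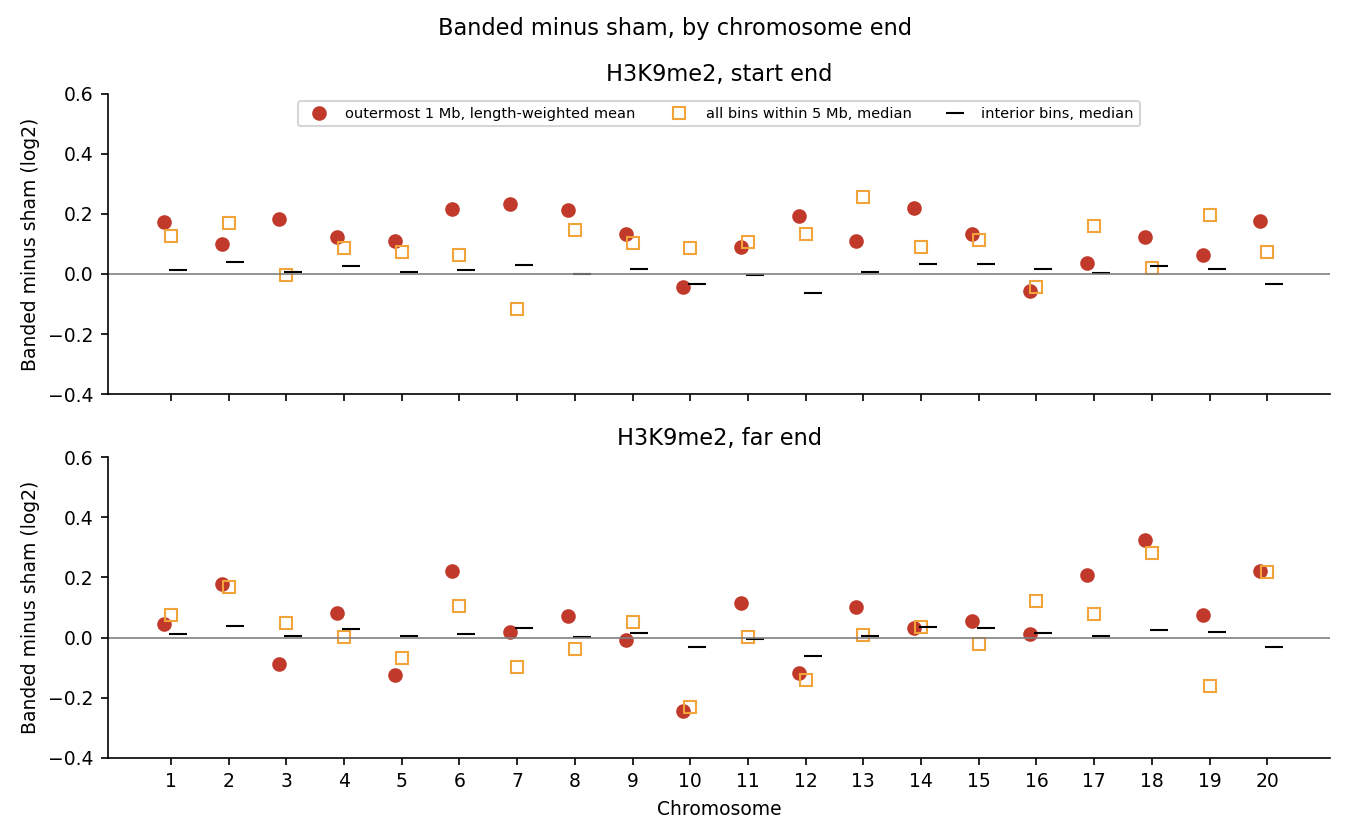
Banded minus sham difference of H3K9me2 (log2) by chromosome at the start ends (top) and far ends (bottom): filled circles give the outermost 1 Mb, open squares the median of all bins within 5 Mb, and dashes the interior median. In the outermost 1 Mb the difference is above 0 on 18 of 20 chromosomes at the start and 15 of 20 at the far end.

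Few end bins differed by a large amount between banded and sham rats. For H3K9me2, 0 of 541 end bins were higher in banded rats by more than 0.5 on the log2 scale, beside 0.0324% of all bins, and 3 were lower, beside 0.113%. At a difference over 0.25, 36 end bins were higher (6.65%, beside 3.82% of all bins) and 44 were lower (8.13%, beside 6.69%). At the start ends 20 bins were higher (8.55%) and 10 lower (4.27%) at that size, and at the far ends 16 were higher (5.21%) and 34 lower (11.1%). In the interior 200 were higher (3.55%) and 369 lower (6.55%), so that losses outnumbered gains in the interior and at the far ends, and gains outnumbered losses at the start ends.

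The 3 largest losses of H3K9me2 with banding all had a higher value in sham than in control rats. On chromosome 10 from 108175001 to 108245001 the density was 154 RPM per Mb in control, 191 in trained, 394 in sham and 269 in banded rats, a difference of -0.55 between banded and sham. On chromosome 16 from 1445001 to 1495001 it was 252 in control, 258 in trained, 540 in sham and 372 in banded rats, a difference of -0.54. On chromosome 8 from 126295001 to 126475001 it was 166 in control, 171 in trained, 407 in sham and 285 in banded rats, a difference of -0.51. In each bin the sham value stood highest and the banded value lay between it and both training groups. Picking bins by their loss from sham to banded favours bins with a high sham value, so this pattern is in part set by the choice. H3K27me3 over these 3 stretches was also lower in banded than in sham rats, with differences of -0.22, -0.40 and -0.39. It was lower in trained than in control rats as well, with differences of -0.20, -0.26 and -0.37, although H3K9me2 was not.

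The 3 largest gains did not share 1 pattern across the groups. On chromosome 19 from 75001 to 125001 the H3K9me2 density was 255 in control, 330 in trained, 330 in sham and 464 in banded rats. The banded minus sham difference was 0.49, and banded rats stood highest and control rats lowest. On chromosome 18 from 86525001 to 86675001 it was 493 in control, 410 in trained, 308 in sham and 428 in banded rats, a difference of 0.48, and sham rats stood lowest. On chromosome 7 from 2305001 to 2375001 it was 368 in control, 298 in trained, 165 in sham and 221 in banded rats, a difference of 0.42, and sham rats again stood lowest. Picking bins by their gain from sham to banded favours bins with a low sham value, so this is in part set by the choice. The 3 bins were 50, 150 and 70 kb long, with 23.2, 64.1 and 15.5 RPM in banded rats, and the read depth behind them is unknown. H3K27me3 over them differed by 0.03, 0.03 and 0.07.

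H3K27me3 at the ends differed little between banded and sham rats. The median was 0.0079 at the start ends, -0.023 at the far ends and 0.0091 in the interior, and 176 of 328 start and 157 of 374 far bins were higher in banded rats. With each column centred on its own median the start value turned to -0.035, while that of the far ends stayed below 0 under all 30 settings. By more than 0.5, 0 of 702 end bins were higher and 0 lower, beside 0.0206% of all bins in each direction. By more than 0.25, 14 were higher (1.99%, beside 1.46% of all bins) and 24 lower (3.42%, beside 2.48%). The mean difference in the outermost 1 Mb of the start ends was 0.057 and positive on 14 of 20 chromosomes. At the far ends it was -0.0063 and positive on 10 of 20.

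The largest H3K27me3 gain with banding was at the start of chromosome 7, from 25000 to 125002, with 155 RPM per Mb in control, 160 in trained, 122 in sham and 168 in banded rats. Gains on chromosome 15 from 845000 to 865002 (0.42) and chromosome 7 from 2505000 to 2565002 (0.40) followed. The largest loss was on chromosome 5 from 168305000 to 168325002. It had 391 in control, 415 in trained, 395 in sham and 285 in banded rats, so that banded rats stood lowest. The second was on chromosome 8 from 126435000 to 126475002, at the distal edge of the H3K9me2 bin of the third loss, with 197 in control, 145 in trained, 216 in sham and 157 in banded rats. The third was on chromosome 19 from 58335000 to 58485002 (-0.43). The bins of the largest loss, the second loss and the second gain were short. They had 5.71, 6.30 and 9.34 RPM in banded rats, and the read depth behind them is unknown. These 3 gains lay at start ends and these 3 losses at far ends, but past 0.25 losses outnumbered gains at both, with 9 bins higher and 11 lower at the start ends and 5 higher and 13 lower at the far ends.

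Trained rats were close to control rats in both marks at the ends. For H3K9me2 the median difference between trained and control rats was -0.00057 at the start ends, -0.010 at the far ends and 0.0011 in the interior. By more than 0.5, 0 of 541 end bins were higher, beside 0.0% of all bins, and 0 were lower, beside 0.0486%. By more than 0.25, 5 were higher (0.924%, beside 0.616%) and 7 were lower (1.29%, beside 1.04%). The mean difference in the outermost 1 Mb was -0.046 at the start ends, negative on 13 of 20 chromosomes, and -0.029 at the far ends, negative on 16. The start value rested in part on chromosome 13 (-0.39) and was -0.027 without it.

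That difference on chromosome 13 was the largest H3K9me2 loss with training. The bin from 1 to 1305001 had 242 RPM per Mb in control, 184 in trained, 331 in sham and 357 in banded rats, and trained rats stood lowest. H3K27me3 over the same stretch differed by -0.13. The next losses were short bins on chromosome 9 from 110155001 to 110175001 (-0.35) and chromosome 19 from 2185001 to 2225001 (-0.32). The 3 largest gains were the chromosome 19 bin from 75001 to 125001 (0.37), which also led the gains with banding, chromosome 8 from 3165001 to 3205001 (0.34) and the chromosome 10 bin from 108175001 to 108245001 (0.31), which led the losses with banding.

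For H3K27me3 the median difference between trained and control rats was 0.0 at the start ends, -0.015 at the far ends and 0.011 in the interior. By more than 0.5, 2 end bins were higher, beside 0.0824% of all bins, and 1 was lower, beside 0.0412%. By more than 0.25, 8 were higher (1.14%, beside 0.948%) and 23 lower (3.28%, beside 1.74%). The largest gain was on chromosome 8 from 4485000 to 4595002, with 365 RPM per Mb in control, 578 in trained, 453 in sham and 479 in banded rats, and control rats stood lowest. The second gain was on chromosome 6 from 142965000 to 143115002, described with the sham comparison, and the third was the chromosome 15 bin from 845000 to 865002 (0.32). The largest loss was on chromosome 12 from 43885000 to 43925002, with 246 in control, 169 in trained, 238 in sham and 205 in banded rats. The chromosome 8 bin from 126435000 to 126475002 (-0.44) and chromosome 9 from 855000 to 1515002 (-0.40) followed. The chromosome 8 bin was thus lower in trained than in control and in banded than in sham rats.

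Sham and control rats differed far more than either treated group differed from its own comparison group. These groups differ in surgery, start weight and experiment, which cannot be told apart, and the comparison shares the sham column with banded minus sham and the control column with trained minus control. For H3K9me2 the median difference was -0.095 at the start ends, -0.052 at the far ends and -0.021 in the interior. On 5 of 20 chromosomes the median of the start end was above that of its interior, and on 7 of 20 that of the far end was. By more than 0.5, 78 of 541 end bins were higher in sham rats (14.4%, beside 14.2% of all bins) and 102 were lower (18.9%, beside 12.4%). The share past 0.5 in either direction was 37.1% at the far ends, 28.2% at the start ends and 26.0% in the interior. By more than 0.25, 143 end bins were higher (26.4%, beside 28.7% of all bins) and 205 were lower (37.9%, beside 29.1%). A mean weighted by bin length was -0.020 at the start ends and 0.0035 at the far ends, while a 2 Mb window gave medians of -0.099 and -0.16.

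The direction of these H3K9me2 differences changed with the density of the bin. Quartiles of density were cut over all bins on the mean of the 4 groups, which includes the values compared. Between sham and control rats, the sparsest quartile had a median difference of 0.18 at the start ends, 0.41 at the far ends and 0.37 in the interior, and the densest had -0.43, -0.51 and -0.34. Sham rats were higher in 3 of the 66 densest start bins and in 5 of the 78 densest far bins. Between banded and sham rats the order was the opposite, with -0.029 at the start ends, -0.15 at the far ends and -0.11 in the interior for the sparsest quartile, and 0.15, 0.11 and 0.081 for the densest. The median of the start ends stood above that of the interior in each of the 4 quartiles. Banded rats were higher in 32 of 68 start bins of the sparsest quartile and in 60 of 66 of the densest. Whether density accounts for the difference at the start ends was not tested. Since both comparisons use the sham values, opposite orders are not independent of each other.

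**Figure D5:**
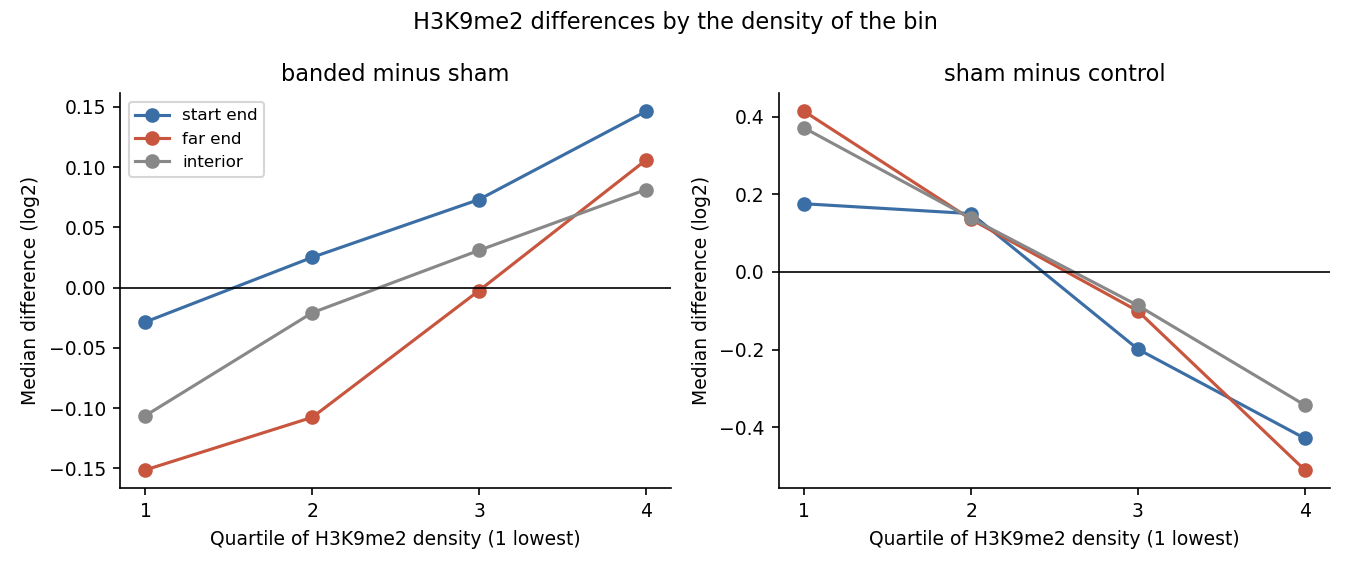
Median log2 difference of H3K9me2 by quartile of density, from sparsest (1) to densest (4), for banded minus sham (left) and sham minus control (right), with start ends in blue, far ends in red and interior in grey. In the left plot the start ends lie above the interior in each quartile, from -0.029 to 0.15, and the vertical scales differ.

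The largest H3K9me2 difference between sham and control rats at the ends was a loss on chromosome 20 from 2695001 to 2795001. Its density was 972 RPM per Mb in control, 867 in trained, 315 in sham and 349 in banded rats, so both surgery groups were far below both training groups. A second loss lay on the same chromosome from 775001 to 825001 (-1.36). The largest gain was on chromosome 6 from 142965001 to 143115001, with 87.7 in control, 87.7 in trained, 225 in sham and 283 in banded rats. The chromosome 10 bin from 108175001 to 108245001 (1.35) was the second gain. The distal part of rat chromosome 6 is known for the immunoglobulin heavy chain genes, but whether the bin overlaps them was not tested.

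H3K27me3 in the matching chromosome 6 bin, from 142965000 to 143115002, had 46.4 RPM per Mb in control, 67.6 in trained, 162 in sham and 200 in banded rats. Its sham minus control difference of 1.80 was the largest gain of either mark at the ends, and both marks shared the order of surgery groups over training groups. On chromosome 20 from 2665000 to 2815002, across the H3K9me2 loss, H3K27me3 had 1809 in control, 1676 in trained, 1182 in sham and 1023 in banded rats, a difference of -0.61. The largest H3K27me3 loss was on chromosome 13 from 1495000 to 1735002 (-0.63), and the second gain was beside it, from 375000 to 1305002, with 121 in control, 109 in trained, 219 in sham and 248 in banded rats. For H3K27me3 as a whole, 9 of 702 end bins were higher in sham rats by more than 0.5 (1.28%, beside 1.81% of all bins) and 8 were lower (1.14%, beside 1.33%). By more than 0.25, 106 were higher (15.1%, beside 16.6%) and 121 lower (17.2%, beside 16.0%). Its median difference was 0.000073 at the start ends, -0.0043 at the far ends and -0.010 in the interior. The mean in the outermost 1 Mb was 0.12 at the start ends and 0.10 at the far ends, and positive on 17 of 20 chromosomes at each. This was not particular to the ends, since the mean was positive in each 1 Mb step out to 15 Mb and reached 0.14 from 10 to 11 Mb at the start and 0.13 from 13 to 14 Mb at the far end.

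The 2 marks were compared on 100 kb tiles, 944 at the start ends, 939 at the far ends and 22966 in the interior. These correlations are a description, since neighbouring tiles share bins and both marks share the sorted nuclei, the base composition and the mappability of a tile. The density of H3K9me2 and that of H3K27me3 had a Pearson correlation of 0.75 at the start ends, 0.59 at the far ends and 0.62 in the interior. Tiles with both marks above their own median made up 36.7% at the start ends, 37.0% at the far ends and 36.4% in the interior, and tiles with neither made up 47.7%, 32.5% and 36.1%. The start ends thus held more tiles low in both marks. The banded minus sham differences of both marks had a correlation of 0.58 at the start ends, 0.60 at the far ends and 0.52 in the interior. The sham minus control differences had 0.65, 0.73 and 0.66. The trained minus control differences had -0.15, -0.60 and -0.33 (Spearman -0.34, -0.55 and -0.42), so with training a tile that was higher in one mark tended to be lower in the other.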

How the data were processed

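For each mark and experiment the authors deposited a table of bins with log2 RPM in 1 column per group. Per the file names, the bins were set by circular binary segmentation. The joining of the 4 samples of a group and the genome build are both not given in the sources used here. Tools listed in the submitters' processing notes, with no role stated, are edgeR, SAMtools, Bowtie and R 2.15.1. The 4 columns of a mark agreed within 0.01 log2 in 99.8% of their sorted values. Read depth is unknown, and the 4 input samples have no column in these tables. The RNA tables were not analysed here.

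Density was computed as log2 RPM minus log2 length in Mb, with Python 3.11.15, pandas 2.3.3 and numpy 2.4.6, and figures with matplotlib 3.10.9. The calculation was tested on simulated data. Values by distance are weighted by the length inside each 1 Mb step. Bins named in the text are, per mark, the 3 densest and 3 sparsest end bins of at least 100 kb, the 3 largest gains and losses with banding and with training, the 2 largest between sham and control, and those beside the border on chromosomes 1 and 20. Named chromosomes have the 3 highest and 3 lowest ends against their interior. Alternatives were other windows, pseudocounts, thresholds, summaries and filters. The regions and lists were chosen with earlier results of these data known. The outermost 1 Mb, the grouping by chromosome arms and leaving out chromosomes were added after the values were seen.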

Additional observations from a re-analysis of the deposited data

How the results depend on the processing

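No paired analysis was possible because the chromatin tables hold 1 column per group, and for the same reason no replicate was left out. A median is counted as stable where it moved by less than 0.05 on the log2 scale. This held for 58 of 66 alternative values of the 8 summaries over both ends. Most of these summaries were themselves smaller than 0.05 in size, so a value could change sign and still count as stable. For example, the H3K9me2 banded minus sham median of 0.024 was -0.0011 with a 10 Mb window. The H3K9me2 density difference of -0.034 was 0.000997 without the lowest 10% of bins. The H3K27me3 banded minus sham median of -0.0065 was 0.0092 with a 2 Mb window. The values that moved by more follow, and the cause was not tested. For H3K9me2 the banded minus sham median of 0.024 was 0.094 with a 2 Mb window, and the sham minus control median of -0.075 was -0.0084 as a mean weighted by length. The H3K27me3 density difference of -0.039 was 0.099 for summed length, -0.20 with a 2 Mb window, 0.036 with a 10 Mb window and 0.014 without the lowest 10% of bins. The H3K27me3 sham minus control median of -0.0011 was -0.058 without the lowest 10% of bins and 0.067 as a mean weighted by length.

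Counts of end bins depended on the threshold. At 0.25 in place of 0.5, the H3K9me2 counts in either direction were 80 in place of 3 for banding, 12 in place of 0 for training and 348 in place of 180 for sham minus control, and those of H3K27me3 were 38 in place of 0, 31 in place of 3 and 227 in place of 17. At 1, H3K9me2 had 0 for banding and 17 for sham minus control, and H3K27me3 had 0 for training and 1 for sham minus control. With a pseudocount at the 10th percentile, H3K9me2 had 0 for banding and 37 for sham minus control, and H3K27me3 had 0 for training and 2 for sham minus control. Without the lowest 10% of bins, H3K9me2 had 1 for banding. With centred columns, H3K27me3 had 2 for banding. Depth is unknown, so how far short bins are limited by read number was not tested.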
